A study of Mus musculus with 6 samples.

Results

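The 10 genes described here encode proteins with Tudor domains, most of them known from germ cells, and were followed in ribosome footprints from mouse round spermatids, the haploid cells that follow meiosis. They were chosen by gene name, with no cut on the measured values but with earlier results of these data known. The 10 are Tdrd1, Tdrd3, Tdrd5, Tdrd6, Tdrd7, Tdrd9, Tdrd12, Tdrkh, Rnf17 and Stk31. All 10 have a row among the 22770 gene rows of the table, and all 10 were dense enough to be tested (6-library mean no lower than 1 FPKM), as were 15578 rows in all. The groups are 3 libraries of the genotype labelled Eif5a SKO, called SKO below, and 3 wild-type libraries, called WT below. EIF5A is the hypusine-carrying translation factor that helps ribosomes through difficult stretches of coding sequence, and the labels do not spell out what SKO stands for. The sources used here name no Cre line, strain or age of the mice. The design text, written for an accessibility assay, describes cells sorted from 3 mice per group. Nothing in the labels of the footprint libraries states that each came from its own mouse, so p-values measure only the spread between these samples. The series title sets the work in translational control and chromocenter reorganization. The comparison thus asks whether ribosome occupancy of these Tudor domain genes differed when Eif5a was targeted.

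A Tudor domain is a small fold that binds methylated arginine or lysine. In germ cells it lets these proteins grip the methylated arginines of PIWI proteins, the partners of piRNAs, and gather them into granules. Intermitochondrial cement is such a granule in spermatocytes, and the chromatoid body is a large perinuclear granule of RNA and protein in round spermatids. Both are known for silencing transposons and for handling long-lived mRNAs before the spermatid nucleus shuts down.

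Footprint density is given in FPKM, fragments scaled to transcript length and to the mapped fragments of the library, so levels of different genes are compared per length. It depends on mRNA abundance as well as on translation, and RNA levels are not analysed here. In such bulk samples, fewer cells of a type and less RNA per cell cannot be told apart. Absolute depth is unknown. The steps between low values put the relative depth of the libraries between 0.503 and 1.00 in SKO and between 0.631 and 0.787 in WT, with SKO replicate 1 set to 1. Protein-coding rows held 18.2% to 32.9% of the summed FPKM in SKO and 22.3% to 28.3% in WT, so the part of each library left to coding genes differed from library to library. For this reason the changes of the 10 genes are given with the deposited values and again after TMM-type scaling, in which each library is divided by a trimmed mean of its ratios to a common library. That scaling moved the median log2 fold change of all tested rows to 0.003, against 0.13 with the deposited values. Eif5a itself had 1.84, 1.93 and 2.99 FPKM in SKO, against 34.2, 48.8 and 61.9 FPKM in WT (log2 fold change -3.90, SE 0.37, limma adjusted p = 0.00641). The targeted gene was thus far lower in every library labelled SKO.

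The 10 genes differed widely in level, and their log2 fold changes lay on both sides of 0. Changes of the members were not tested against each other. Tdrd6, Tdrd7 and Rnf17 carried most of the footprints, Tdrd9 came next, and the other 6 lay at a few FPKM. Rnf17 and Tdrd7 had SKO means near 50% of the WT means, Tdrd6 had about the same level in both groups, and Tdrd5 was the gene with the highest positive fold change. With the deposited values 0 of the 10 passed limma at an adjusted p under 0.05, where 0.128% of all tested rows were called and 0.0193% were called lower. Only 1 of the 10, Rnf17, had an unadjusted p under 0.05, in the lower direction, against 2.83% of all rows in that direction. After TMM-type scaling 0 of 10 passed, against 1.02% of rows and 0.257% called lower, and 3 of 10 (Rnf17, Tdrd7 and Tdrd3) had an unadjusted p under 0.05 in the lower direction, against 6.71% of rows. With equal sums over protein-coding rows and with quantile normalization 2 of 10, Rnf17 and Tdrd7, passed, against 1.3% and 1.27% of rows called lower. Most fits that left out a library, and the fit with the replicate number as a block, did not pass there.

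**Figure D1:**
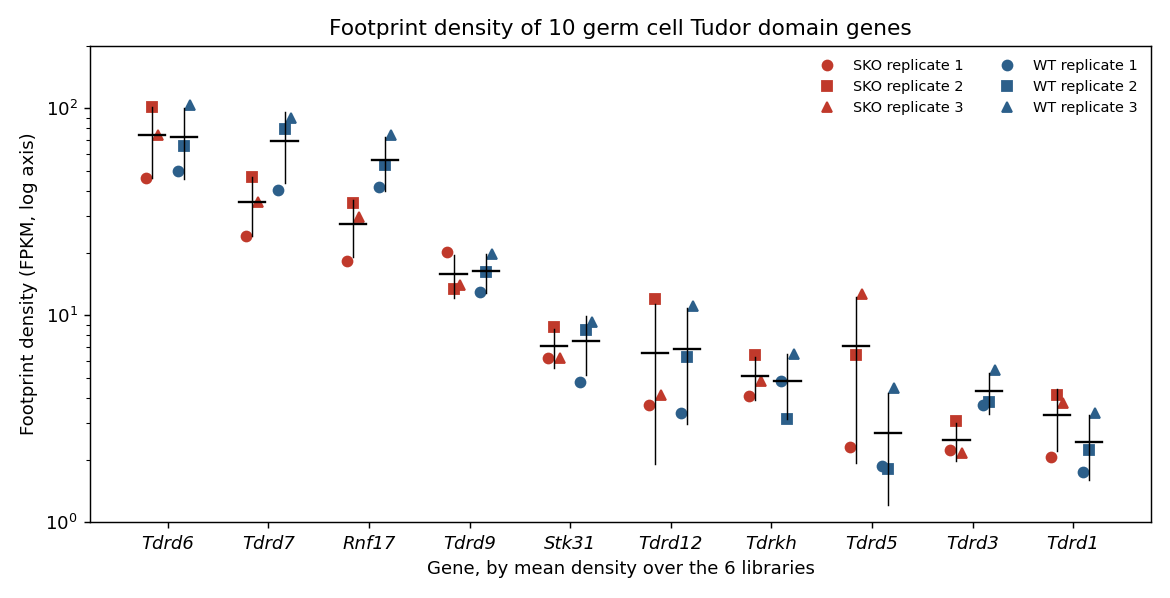
Footprint density (FPKM, log axis) of the 10 Tudor domain genes in each library, SKO in red and WT in blue. Horizontal bars are group means and vertical bars ± 1 SD (n = 3 each). Tdrd6 shows the same range in both groups, whereas all 3 SKO points of Rnf17, from 18.3 to 34.9 FPKM, lie under its 3 WT points, from 41.8 to 74.4 FPKM.

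Rnf17 encodes a protein with a RING finger and several Tudor domains that forms granules of its own in the germ cell cytoplasm, and male mice without it do not complete spermatid development. Its gene (identifier 30054) spans bases 56402650 to 56525032 of chromosome 14 in GRCm38. Rnf17 had 18.3, 34.9 and 29.7 FPKM in SKO replicates 1, 2 and 3, against 41.8, 53.2 and 74.4 FPKM in WT replicates 1, 2 and 3. Every SKO library was below every WT library, with SKO replicate 1 the lowest of the 6 and WT replicate 3 the highest. The means were 27.6 ± 8.46 FPKM in SKO and 56.5 ± 16.5 FPKM in WT (SD, n = 3 each), a ratio of 0.490. On the log2(FPKM + 1) scale the difference was -1.01 (SE 0.41, 95% interval -1.94 to -0.08), which did not pass over all tested rows (limma adjusted p = 0.416). After TMM-type scaling the values were 21.6, 26.6 and 27.6 in SKO, against 51.5, 57.4 and 66.8 in WT. The scaled SKO libraries thus lay close together, at 25.3 ± 3.22, and well apart from WT at 58.6 ± 7.75 (SD, n = 3 each). The scaled log2 fold change was -1.18 (SE 0.21, 95% interval -1.67 to -0.69), just short of the threshold (limma adjusted p = 0.0546).

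Tdrd7 encodes a protein with LOTUS and Tudor domains that is needed to shape the chromatoid body and is also known for lens disease when lost. Its gene (identifier 100121) spans bases 45965027 to 46034766 of chromosome 4 in GRCm38. Tdrd7 had 24.2, 46.6 and 35.2 FPKM in SKO, against 40.1, 79.0 and 89.3 FPKM in WT. The groups overlapped through SKO replicate 2 and WT replicate 1 alone. The means were 35.3 ± 11.2 FPKM in SKO and 69.5 ± 26.0 FPKM in WT (SD, n = 3 each), a ratio of 0.509. The log2 fold change was -0.92 (SE 0.45, 95% interval -1.94 to 0.09, limma adjusted p = 0.489). Once scaled, the overlap was gone: the values were 28.5, 35.6 and 32.7 in SKO, against 49.4, 85.2 and 80.3 in WT. The scaled log2 fold change was -1.09 (SE 0.26, limma adjusted p = 0.104).

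Both genes fell under 2 further scalings. When every library was brought to the same sum over protein-coding rows, Rnf17 fell by 1.24 on the log2 scale (limma adjusted p = 0.0105) and Tdrd7 fell by 1.16 (limma adjusted p = 0.0264). These were the only 2 of the 10 to pass there, in a setting that called 1.3% of all tested rows lower in SKO. With quantile normalization Rnf17 fell by 1.29 (limma adjusted p = 0.0162) and Tdrd7 by 1.20 (limma adjusted p = 0.0267), again alone among the 10 and with 1.27% of rows called lower. The calls changed when libraries were left out. With equal sums over protein-coding rows and 1 library left out, Rnf17 passed in 2 of 6 fits (limma adjusted p from 0.0377 to 0.0570) and Tdrd7 in 1 of 6 (limma adjusted p from 0.0387 to 0.104). With quantile normalization Rnf17 passed in 1 of 6 such fits and Tdrd7 in 0 of 6, with limma adjusted p from 0.0367 to 0.0777 and from 0.0513 to 0.0999. The direction was negative in all of these fits for both genes.

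**Figure D2:**
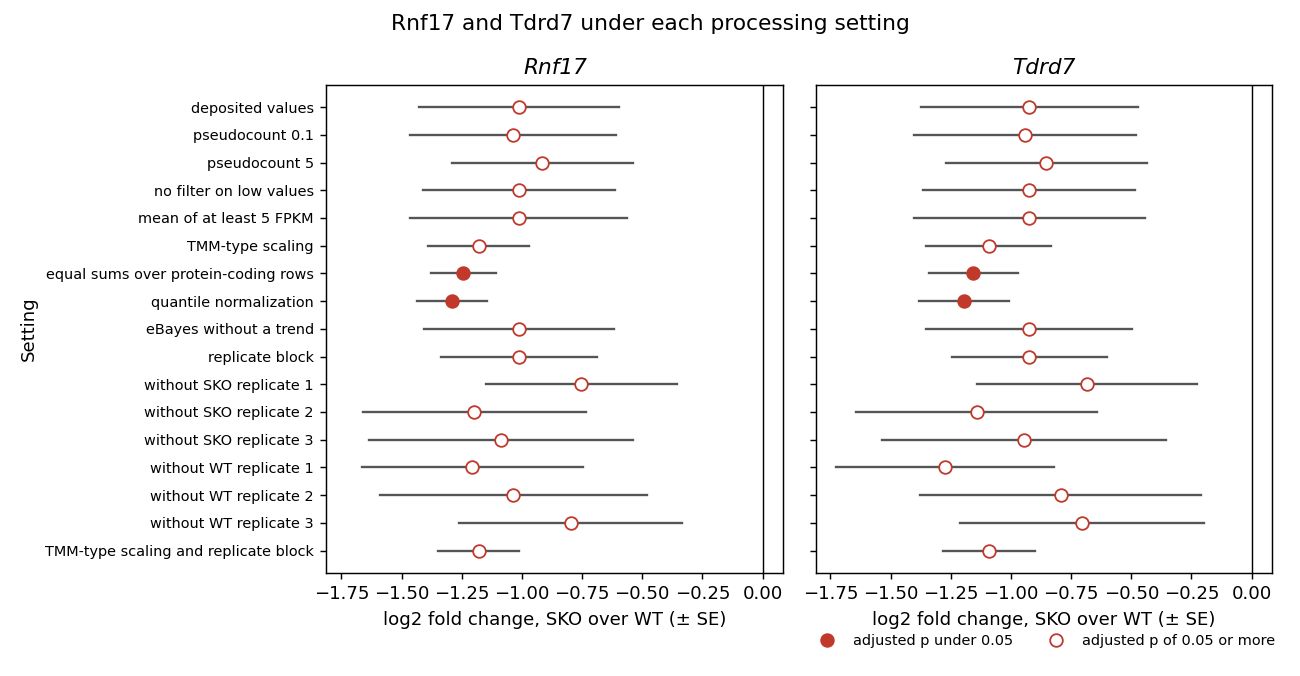
log2 fold change (SKO over WT) of Rnf17 and Tdrd7 with its SE under the listed settings. Filled points have a limma adjusted p under 0.05. Every point lies below 0, and the filled ones are those with equal sums over protein-coding rows, at -1.24 and -1.16, and with quantile normalization, at -1.29 and -1.20.

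Tdrd6 encodes a long protein made up of repeated Tudor domains that builds the chromatoid body together with TDRD7. The gene (identifier 210510) spans 43615334 to 43631846 of GRCm38 chromosome 17. It had the highest density of the 10, ranking 448 among 13745 protein-coding rows by mean FPKM. It had 46.0, 101 and 74.2 FPKM in SKO, against 49.8, 65.4 and 103 FPKM in WT. Both groups ran over the same range, and the means were 73.9 ± 27.7 FPKM in SKO and 72.8 ± 27.5 FPKM in WT (SD, n = 3 each). The log2 fold change was 0.01 with a 95% interval of -1.01 to 1.04 (limma adjusted p = 0.994), and -0.16 with an interval of -0.72 to 0.41 after TMM-type scaling (limma adjusted p = 0.825). The sign thus turned with the scaling, and both intervals allow changes in either direction.

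Ratios of 2 genes within a library do not depend on how libraries are scaled against each other. The ratios of Rnf17 and Tdrd7 to Tdrd6 differed between the groups. These ratios were chosen after the values were seen and are given without a test. How often the ratios of other genes to Tdrd6 separate was not tested. Rnf17 over Tdrd6 was 0.399, 0.344 and 0.401 in SKO, against 0.839, 0.813 and 0.720 in WT. The groups were well apart, at 0.381 ± 0.0322 in SKO and 0.791 ± 0.0625 in WT (SD, n = 3 each). Tdrd7 over Tdrd6 was 0.526, 0.460 and 0.475 in SKO, against 0.805, 1.21 and 0.865 in WT. Here too the groups did not overlap. Rnf17 over Tdrd7, in contrast, was 0.758, 0.748 and 0.844 in SKO, against 1.04, 0.673 and 0.833 in WT. The ratio of these 2 genes to each other ran over overlapping ranges. In WT the neighbours Tdrd6 and Tdrd7 differed by less than the spread between replicates, whereas in every SKO library Tdrd6 stood at the top with a clear gap to Tdrd7.

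The same picture appears in the make-up of the summed footprints of the 10 genes. Tdrd6 made up 35.6%, 42.8% and 39.7% of that sum in SKO, against 30.2%, 27.3% and 31.6% in WT. Rnf17 made up 14.2% to 15.9% in SKO and 22.2% to 25.4% in WT, and Tdrd7 made up 18.7% to 19.7% in SKO and 24.3% to 33.0% in WT. For all 3 genes the groups did not overlap. The shares of Tdrd1 and Tdrd5 were also higher in every SKO library than in any WT library. Those of Tdrd3, Tdrd9, Tdrd12, Tdrkh and Stk31 overlapped. A lower share of one gene raises the share of the others. How often such shares separate in other sets of genes was not tested. The sum itself was 129 to 237 FPKM in SKO and 165 to 327 FPKM in WT. After TMM-type scaling it was 152 to 181 in SKO and 203 to 294 in WT, without overlap. How often such sums separate in other sets of genes was not tested either.

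**Figure D3:**
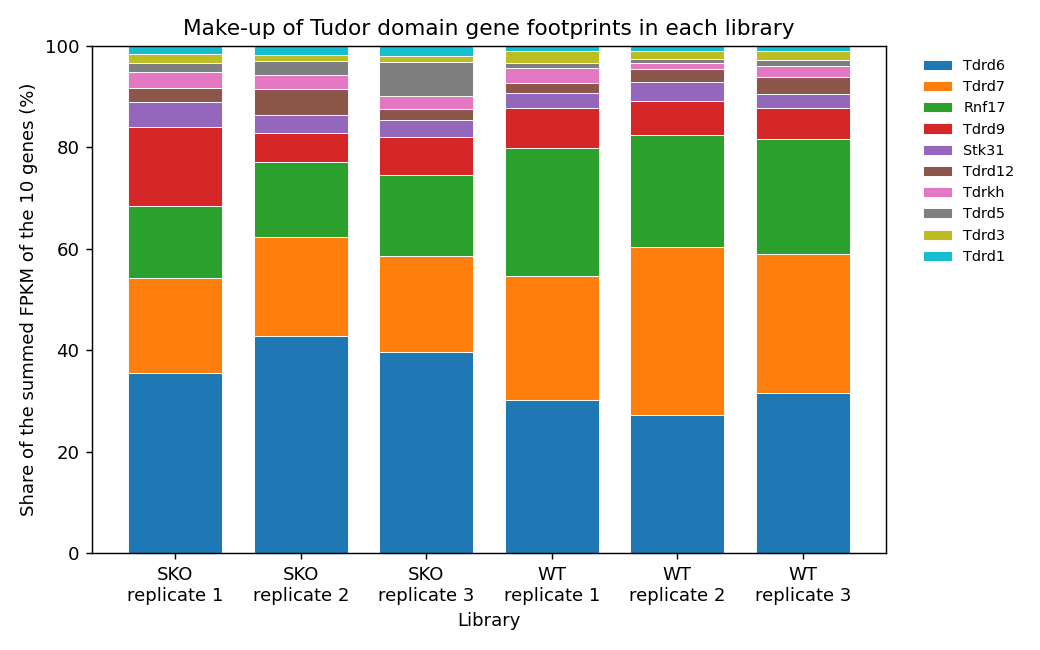
Share (%) of each Tudor domain gene in the summed FPKM of the 10 genes, 1 bar per library, SKO on the left and WT on the right. Rnf17 takes 14.2% to 15.9% in SKO against 22.2% to 25.4% in WT, and Tdrd6 at least 35.6% in SKO against at most 31.6% in WT.

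Tdrd5 and Tdrd1 were the 2 genes of the 10 with a higher SKO mean under both scalings. Tdrd5 encodes a protein with LOTUS and Tudor domains that is required for chromatoid body assembly and spermatid differentiation (identifier 214575, on GRCm38 chromosome 1 from 156255296 to 156304304). Tdrd5 had 2.31, 6.44 and 12.6 FPKM in SKO, against 1.87, 1.81 and 4.43 FPKM in WT. SKO replicate 3 lay far above all others, and SKO replicate 1 lay within the WT range. The log2 fold change was 0.98 (SE 0.53, 95% interval -0.21 to 2.17, limma adjusted p = 0.542) and 0.84 (SE 0.48) after TMM-type scaling. With the deposited values it ran from 0.49 to 1.51 when 1 library was left out. Tdrd5 over Tdrd6 within a library was 0.0502, 0.0635 and 0.170 in SKO, against 0.0375, 0.0277 and 0.0429 in WT, with no overlap. 

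Tdrd1 encodes a scaffold of several Tudor domains that binds the PIWI protein MILI in intermitochondrial cement (identifier 83561, on GRCm38 chromosome 19 from 56826171 to 56870012). Tdrd1 had the lowest mean of the 10 over the 6 libraries, with 2.07, 4.11 and 3.76 FPKM in SKO, against 1.74, 2.23 and 3.39 FPKM in WT. The groups overlapped (log2 fold change 0.31, SE 0.36, limma adjusted p = 0.804). After TMM-type scaling it was 0.19 (SE 0.28). Relative to Tdrd6 in the same library it had 0.0449, 0.0405 and 0.0506 in SKO, against 0.0350, 0.0341 and 0.0328 in WT. All 3 SKO ratios were thus above the WT ratios, although the levels were not separated. Tdrd3 over Tdrd6 was 0.0485, 0.0305 and 0.0292 in SKO, against 0.0737, 0.0581 and 0.0525 in WT, with SKO lower and no overlap. For Tdrd9, Tdrd12, Tdrkh and Stk31 the ratios to Tdrd6 overlapped. These ratios, too, were chosen after the values were seen and are given without a test.

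Tdrd3 differs from the rest in that its protein is broadly expressed and known mainly for binding methylarginine on histones and RNA polymerase together with the topoisomerase TOP3B. It is not known as a core chromatoid body component. The gene (identifier 219249) spans 87416178 to 87545508 of GRCm38 chromosome 14. Tdrd3 had 2.23, 3.09 and 2.16 FPKM in SKO, against 3.67, 3.80 and 5.42 FPKM in WT. The groups did not overlap, and the SKO mean was 0.581 of the WT mean. The log2 fold change was -0.59 (SE 0.33, limma adjusted p = 0.550), and -0.72 after TMM-type scaling (SE 0.26, limma adjusted p = 0.239). Rnf17 and Tdrd3 were thus the 2 of 10 genes whose deposited values did not overlap with SKO lower, against 4.78% of all tested rows, and with Tdrd7 they made 3 of 10 after TMM-type scaling, against 9.85% of rows. In the higher direction the count was 0 of 10 under both scalings, against 10.9% and 11.6% of rows.

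The remaining 4 genes, Tdrd9, Tdrd12, Tdrkh and Stk31, had group means that differed by less than the spread between replicates. Tdrd9 and Tdrd12 encode proteins that join a Tudor domain to an RNA helicase domain and are known from piRNA production and transposon silencing in earlier germ cells. Tdrd9 (identifier 74691) spans 111971488 to 112068854 of GRCm38 chromosome 12. Tdrd9 had 20.2, 13.4 and 14.0 FPKM in SKO, against 12.9, 16.2 and 19.8 FPKM in WT. The groups overlapped. Tdrd12 (identifier 71981) spans 35466941 to 35537784 of GRCm38 chromosome 7. Tdrd12 had 3.70, 12.01 and 4.10 FPKM in SKO, against 3.36, 6.26 and 11.1 FPKM in WT. Their log2 fold changes were -0.04 (SE 0.36) for Tdrd9 and -0.10 (SE 0.52) for Tdrd12, and -0.19 (SE 0.31) and -0.24 (SE 0.40) after TMM-type scaling. Within SKO the pair was not stable: Tdrd9 over Tdrd12 was 5.46, 1.12 and 3.42, against 3.85, 2.59 and 1.78 in WT.

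Tdrkh encodes a Tudor and KH domain protein of the mitochondrial surface that holds MIWI for the trimming of piRNA ends. The gene (identifier 72634) spans 94413243 to 94434854 of GRCm38 chromosome 3. Tdrkh had 4.07, 6.42 and 4.82 FPKM in SKO, against 4.79, 3.14 and 6.48 FPKM in WT. Its log2 fold change was 0.10 (SE 0.36, 95% interval -0.72 to 0.91) and -0.05 after TMM-type scaling. Its annotated span overlaps by 1468 bases with Oaz3, the testis antizyme gene, which had 14.9, 21.2 and 24.6 FPKM in SKO, against 5.94, 4.82 and 11.5 FPKM in WT. The sources used here do not say whether the counting kept strands apart, so reads in the shared stretch may be split between the pair, and their part in the Tdrkh values was not tested.

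Stk31 encodes a Tudor protein with a kinase-like domain that is found with MIWI. The gene (identifier 77485) spans 49395506 to 49469506 of GRCm38 chromosome 6. Stk31 had 6.23, 8.78 and 6.18 FPKM in SKO, against 4.78, 8.52 and 9.31 FPKM in WT, with overlapping groups. Its log2 fold change was -0.05 (SE 0.37, 95% interval -0.88 to 0.78) and -0.20 (SE 0.26) after TMM-type scaling. A row for the pseudogene Gm17060, which lies within the Stk31 span, had 8.57 ± 3.78 FPKM in SKO and 4.84 ± 0.607 FPKM in WT (SD, n = 3 each). Reads could be shared between them as well.

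**Figure D4:**
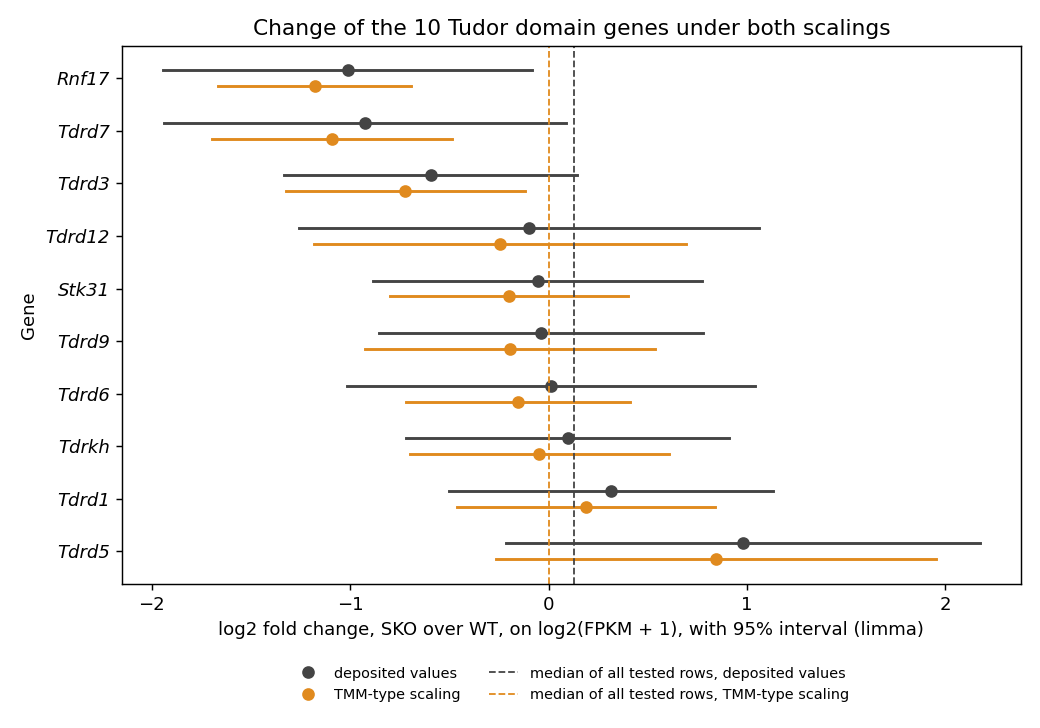
log2 fold change (SKO over WT, on log2(FPKM + 1)) of each Tudor domain gene with its 95% limma interval, for deposited values and after TMM-type scaling. Dashed lines mark the medians of all tested rows, 0.13 and 0.003. Scaling narrows the interval of every gene shown. The estimates of Rnf17 and Tdrd7 are -1.01 and -0.92 with deposited values and -1.18 and -1.09 after scaling.

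By mean level the order in SKO was Tdrd6, Tdrd7, Rnf17, Tdrd9, Tdrd5, Stk31, Tdrd12, Tdrkh, Tdrd1 and Tdrd3, and in WT it was Tdrd6, Tdrd7, Rnf17, Tdrd9, Stk31, Tdrd12, Tdrkh, Tdrd3, Tdrd5 and Tdrd1. In WT the step from Rnf17, at 56.5 ± 16.5 FPKM, to Tdrd9, at 16.3 ± 3.44 FPKM, exceeded the spread between replicates. In SKO that step was smaller, at 27.6 ± 8.46 FPKM for Rnf17 and 15.9 ± 3.74 FPKM for Tdrd9 (SD, n = 3), and the 2 genes had overlapping values, 18.3 FPKM for Rnf17 and 20.2 FPKM for Tdrd9 in SKO replicate 1. All values of Tdrd9 lay above those of the next gene in either order, and further down each pair of neighbours overlapped.

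As a group the 10 genes lay slightly under the other rows. Their median log2 fold change was -0.05, against 0.13 for all tested rows, and -0.20 against 0.003 after TMM-type scaling. Of the 10, 6 were below 0, where 40.6% of all tested rows were, and 8 after TMM-type scaling, where 49.8% of rows were. The change of Rnf17 stood at the 2.93 percentile of all tested rows, that of Tdrd7 at 3.83, that of Tdrd3 at 10.1 and that of Tdrd5 at 91.5.

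The partners of these proteins in the piRNA pathway lay on both sides of 0. Of 20 listed genes 18 were tested, 10 with a positive and 8 with a negative log2 fold change and a median of 0.33. With the deposited values 0 passed limma, and 3 had an unadjusted p under 0.05, all higher, against 8.15% of all tested rows in that direction. After TMM-type scaling 3 had an unadjusted p under 0.05 in the lower direction, against 6.71% of rows, and 2 in the higher direction. With the deposited values the groups of 3 did not overlap with SKO higher and of 3 with SKO lower, against 10.9% and 4.78% of rows. After TMM-type scaling these counts were 4 and 5, against 11.6% and 9.85% of rows. The densest were Gtsf1, a small zinc finger protein that aids PIWI cleavage, Ddx4, the germ cell RNA helicase also called VASA, and Tex15, a factor of piRNA-directed silencing. Gtsf1 had 213, 397 and 303 FPKM in SKO, against 95.3, 117 and 171 FPKM in WT, with every SKO library higher (log2 fold change 1.24, SE 0.44, limma adjusted p = 0.337). Tex15 had 21.6, 47.4 and 37.7 FPKM in SKO, against 44.1, 68.5 and 94.5 FPKM in WT, with SKO lower in mean but groups that overlapped (log2 fold change -0.94, SE 0.45, limma adjusted p = 0.487). After TMM-type scaling the groups of Tex15 did not overlap (log2 fold change -1.11, SE 0.25, limma adjusted p = 0.0926), and Gtsf1 had 1.07 (SE 0.21, limma adjusted p = 0.0690). With equal sums over protein-coding rows these 2 passed as well, Gtsf1 at 1.01 (limma adjusted p = 0.0121) and Tex15 at -1.17 (limma adjusted p = 0.0154). Ddx4 had 136 ± 52.2 FPKM in SKO and 155 ± 47.5 FPKM in WT (SD, n = 3 each), and it was not called under any of the 3 scalings. Piwil1 and Piwil2, chosen after their values were seen, for their role as the PIWI proteins MIWI and MILI that Tudor domains bind, had 6.66 ± 1.92 and 5.95 ± 2.81 FPKM in SKO, against 4.68 ± 1.14 and 3.80 ± 0.848 FPKM in WT (limma adjusted p = 0.705 and 0.687).

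Other chromatoid body proteins and Tudor domain proteins outside germ granules gave no call either. Of 12 tested genes of the chromatoid body list 0 passed limma. Among them 1, Upf1, had an unadjusted p under 0.05, in the higher direction, against 8.15% of all tested rows. The list had a median of 0.22 and shares Ddx4, Mael, Piwil1 and Piwil2 with the piRNA list, so the 2 are not separate. Its densest members besides Ddx4 were Hspa2, the testis heat shock protein, at 174 ± 68.0 FPKM in SKO and 223 ± 82.2 FPKM in WT, and Pabpc1, the poly(A)-binding protein, at 118 ± 52.5 FPKM in SKO and 125 ± 42.5 FPKM in WT (SD, n = 3 each). Among 19 tested Tudor genes known mostly from chromatin and splicing the median was also 0.22, 0 passed limma and 3 had an unadjusted p under 0.05, all higher, against the same 8.15% of rows. Trp53bp1, a DNA repair protein gene, had 42.0, 44.3 and 25.6 FPKM in SKO, against 16.6, 22.5 and 13.7 FPKM in WT, and Sgf29, a subunit of the SAGA coactivator, had 29.5, 52.2 and 23.1 FPKM in SKO, against 10.4, 8.76 and 15.2 FPKM in WT. With the deposited values every SKO library was higher for both genes, without passing the test (limma adjusted p = 0.378 and 0.263). After TMM-type scaling the groups of Trp53bp1 overlapped and those of Sgf29 did not. Smn1, the spliceosome assembly gene, had 24.4 ± 3.73 FPKM in SKO and 24.6 ± 18.6 FPKM in WT (SD, n = 3 each).

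**Figure D5:**
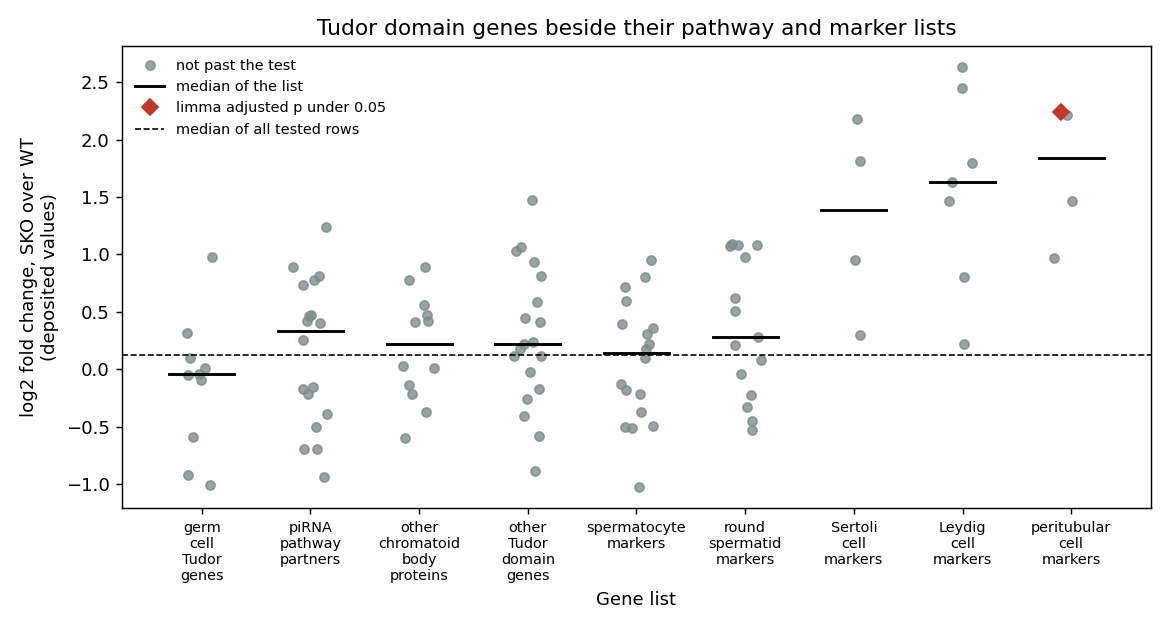
log2 fold change (SKO over WT, deposited values) of each tested gene, by list. Black bars are list medians and the dashed line is the median of all tested rows, 0.13. The germ cell Tudor genes have the lowest median, -0.05, and the somatic cell lists on the right have medians from 1.38 to 1.84.

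The labelled cell type was checked against markers. All 16 round spermatid markers had a row, and their levels ranged widely. Acrv1, an acrosome protein gene, had 628 ± 236 FPKM in SKO and 403 ± 128 FPKM in WT, and Crem, the spermatid transcription factor gene, had 221 ± 88.5 FPKM in SKO and 226 ± 83.9 FPKM in WT (SD, n = 3 each). Spaca1 came next in density, at 210 ± 80.7 FPKM in SKO and 96.4 ± 29.2 FPKM in WT, with every SKO library above every WT library. Tssk6, a spermatid kinase gene, had 1.37 ± 0.770 FPKM in SKO and 0.487 ± 0.676 FPKM in WT. Of 15 tested markers 10 had a positive and 5 a negative log2 fold change. The negative ones were Crem, Hspa1l and the nuclear packaging genes Tnp1, Prm1 and Prm2, whereas Tnp2, also a nuclear packaging gene, had 0.21. None passed limma (0 of 15), and 5 had an unadjusted p under 0.05, all higher, against 8.15% of all tested rows. These 5 were Spaca1, Spaca7, Izumo1, Catsper3 and Pgk2. Spermatocyte markers were present as well: the summed level of the 20 genes was 318 to 617 FPKM in SKO and 295 to 588 FPKM in WT. Of these 18 were tested and 0 passed limma, and their median log2 fold change was 0.14. Only 1, Syce2, had an unadjusted p under 0.05, in the lower direction (log2 fold change -1.03), against 2.83% of all tested rows. The densest were the synaptonemal complex genes Syce3 and Syce1 and the cohesin gene Smc1b. Syce3 had 103 ± 52.8 FPKM in SKO and 49.5 ± 13.6 FPKM in WT, Syce1 had 73.0 ± 34.7 FPKM in SKO and 64.8 ± 19.5 FPKM in WT, and Smc1b had 55.6 ± 11.7 FPKM in SKO and 82.8 ± 37.9 FPKM in WT (SD, n = 3 each). Tex12 alone of this list was at 0 in a library. Somatic markers had higher sums in every SKO library than in any WT library. The summed level of 7 Leydig cell markers was 61.2 to 118 FPKM in SKO and 13.6 to 18.6 FPKM in WT, that of 5 Sertoli cell markers was 60.1 to 81.8 FPKM in SKO and 13.5 to 25.3 FPKM in WT, and that of 4 peritubular cell markers was 25.8 to 39.2 FPKM in SKO and 4.54 to 6.19 FPKM in WT. An unadjusted p under 0.05 was found for 5 of 7 tested Leydig, 2 of 4 Sertoli and 4 of 4 peritubular markers, all higher, against 8.15% of all tested rows. The same genes had groups that did not overlap, against 10.9% of rows in that direction. Of these lists 1 gene passed, where 0.128% of all tested rows did. It was Dcn, the decorin gene (log2 fold change 2.24, limma adjusted p = 0.0470), and this call was lost in every fit that left out a library. None of these 16 markers was at 0 in any library. The sums cover 5 of 10 listed Sertoli, 7 of 8 Leydig and 4 of 6 peritubular markers, and the other listed ones, among them the Sertoli markers Sox9 and Wt1, were not analysed here. After TMM-type scaling the sums were 46.7 to 109.7 in SKO and 14.7 to 22.3 in WT for Leydig cells, 45.9 to 76.0 in SKO and 16.4 to 27.3 in WT for Sertoli cells, and 23.9 to 38.9 in SKO and 4.89 to 7.56 in WT for peritubular cells. The 8 spermatogonia markers summed to 16.7 to 21.1 FPKM in SKO and 13.5 to 18.5 FPKM in WT, with Sohlh1, Dmrt1 and Nanos3 at 0 in at least 1 library. The part of other cell types in the Rnf17 and Tdrd7 values was not tested.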

How the data were processed

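Ribosome-protected fragments of round spermatids were measured in 3 SKO and 3 WT libraries, grouped by the genotype in the sample titles. The table's columns call the mutant cKO. Values are FPKM as deposited by the authors, and counts are not used here. Per the submitters' processing notes, reads went through software that included STAR, Bowtie2, Cufflinks and Cutadapt (roles not stated), on build mm10. Among 2898 genes under 1 FPKM in every library and above 0 in at least 3, 17.6% of value sets were whole-number steps within 2%, against 0.138% after shuffling, too few to recover reads, so no count model was used. Coordinates and biotypes come from RefSeq GRCm38, which matched 19305 symbols.

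The 15578 rows that averaged 1 FPKM or more were tested on log2(FPKM + 1) with limma 3.58.1 in R 4.3.3 (trended eBayes, two-sided, Benjamini-Hochberg over all tested rows, threshold 0.05), a scale that understates changes of low genes. Intervals are 95% and not adjusted. TMM-type factors (trim 0.3 for ratios, 0.05 for levels) ran from 0.812 to 1.31. Fits were tested on simulated data. The 10 genes, the 9 other lists and the rule for named genes (all 10, Eif5a, and in each list up to 4 members past the test and the 3 densest) were chosen with earlier results of these data known. In the spermatogonia and somatic lists the densest members were not all named. Genes named outside the rule, such as Tssk6 and the nuclear packaging genes, were picked with the values known. A planned look at protein length and proline runs was not run. Same-numbered replicates correlated at 0.0926, 0.000158 and 0.0243 (deviations from the group means), and the other pairs from -0.107 to 0.0799. With 3 libraries per group such values cannot decide whether the numbers pair the samples, and the labels state no pairing.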

Additional observations from a re-analysis of the deposited data

How the results depend on the processing

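The negative direction of Rnf17 and Tdrd7 held in all 36 settings run for each gene, and that of Tdrd3 in all 21, as did the positive direction of Tdrd5 and Tdrd1 in all 21. With the deposited values no setting other than a change of scaling brought any of the 10 past the test. With equal sums over protein-coding rows and with quantile normalization, Rnf17 passed at -1.24 and -1.29 and Tdrd7 at -1.16 and -1.20, so 2 of the 10 were called under each, against 0 with the deposited values. Under these 2 scalings Rnf17 also passed without SKO replicate 1, at -1.22 and -1.25, and with equal sums both genes passed without WT replicate 1, Rnf17 at -1.26 and Tdrd7 at -1.32. Under TMM-type scaling, equal sums and quantile normalization, Tdrd6 turned to -0.16, -0.22 and -0.30 and Tdrkh to -0.047, -0.10 and -0.057. The cause was not tested.

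Leaving out 1 library with the deposited values gave ranges across 0 for Tdrd6 (-0.25 to 0.31), Tdrd9 (-0.21 to 0.10), Tdrd12 (-0.57 to 0.27), Tdrkh (-0.13 to 0.30) and Stk31 (-0.31 to 0.10). With TMM-type scaling, Tdrd6 had -0.014, -0.29 and -0.19 without SKO replicate 1, 2 or 3 and -0.29, -0.19 and -0.020 without WT replicate 1, 2 or 3. Tdrkh had -0.056, -0.089 and -0.023 without SKO replicate 1, 2 or 3 and -0.26 without WT replicate 2, and Tdrd9 had 0.026 without SKO replicate 2. None of these values passed the test.

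Rows called higher and lower in SKO numbered 17 and 3 with the deposited values, 3 and 1 when 5 was added before the log, 4 and 1 when no row was filtered, 78 and 8 with a minimum mean of 5 FPKM, 119 and 40 with TMM-type scaling, 314 and 202 with equal sums, and 248 and 198 with quantile normalization. Without 1 library the higher count ran from 3 to 28 and the lower from 1 to 4. The minimum of 5 FPKM kept 6 of the 10 genes.

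Of the lists, 2 piRNA pathway partners were called with equal sums and with quantile normalization. Calls among round spermatid markers were 4 and 1 under those scalings, and among spermatocyte markers 1 with equal sums. Sertoli cell calls were 2, 1, 2 and 2 with a minimum mean of 5 FPKM, TMM-type scaling, equal sums and quantile normalization, and Leydig cell calls 2 with that minimum. Peritubular calls were 2 under each of the 3 scalings and 0 when 5 was added before the log, with no filter, with no trend, with the block and in every fit that left out a library. List medians relative to all rows changed sign for spermatocyte markers, to -0.011 when 0.1 was added before the log, -0.091 with no filter, -0.39 with a minimum mean of 5 FPKM and -0.013, -0.021 and -0.066 under the 3 scalings. That minimum also turned the medians of chromatoid body proteins (-0.18), other Tudor genes (-0.037) and spermatogonia markers (0.42). Leaving out 1 library gave medians from -0.034 to 0.29 for piRNA partners, -0.012 to 0.17 for chromatoid body proteins, -0.27 to 0.033 for spermatocyte markers and -0.36 to 0.22 for spermatogonia markers.

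With the replicate number as a block, rows called numbered 4 and 1, and with TMM-type scaling the block gave -0.16 for Tdrd6 and -0.047 for Tdrkh. The block ended the calls of Rnf17 (limma adjusted p = 0.0707 and 0.0812) and Tdrd7 (limma adjusted p = 0.0869 and 0.0932) under equal sums and quantile normalization. Whether same-numbered samples share more than a number is not known. Those block fits, and the fits without a library under these 2 scalings, were chosen after seeing the data. Absolute depth is unknown, so the part of counting error in the values near 2 FPKM cannot be given.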
